A study of Homo sapiens with 6 samples.

Results

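The transcription factors that direct the building of cilia were measured in TC-71, a cell line established from a human Ewing sarcoma, with and without inhibition of PI3K and mTOR. The set was chosen by gene symbol and holds 10 genes, FOXJ1, RFX1, RFX2, RFX3, RFX4, RFX7, GMNC, MCIDAS, TP73 and MYB, out of 48114 rows of the deposited gene table; each matched 1 row. Wild-type TC-71 cells were exposed for 16 h to BEZ235, a compound that blocks both PI3K and mTOR kinases, dissolved in dimethyl sulfoxide (DMSO). Control cells received DMSO alone for the same time. Each group had 3 libraries, which the labels call biological replicates, from 1 cell line. The sources used here do not give the dose.

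RFX factors share a winged-helix DNA-binding domain that recognises the X-box, a palindromic site in promoters of genes for ciliary transport and the ciliary base, and they act in cells with a primary cilium as well as in cells with motile cilia. FOXJ1, a forkhead factor, directs the genes of motile cilia. In cells that bear many cilia, GMNC (GEMC1) and MCIDAS (multicilin), coiled-coil relatives of the replication inhibitor geminin, act above FOXJ1 together with E2F factors, and TP73 and MYB, which have many roles outside cilia, belong to the same cascade. These programmes are known from airway, ependymal, oviduct and sperm cells rather than from Ewing sarcoma.

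Recovered reads, the deposited values divided by the worth of 1 read, summed to 184790722 to 233767211 per library. A count of 0 allows up to 3 reads, which were worth 2.50 to 3.47 normalized counts. The markers NKX2-2, NR0B1, CD99, STEAP1, CCK and PAX7 of Ewing sarcoma cells were all measured, 3 higher and 3 lower with BEZ235. These shares, 50% each, stood beside 33.1% higher and 33.2% lower among all tested genes. NKX2-2 rose from 3154 ± 126 to 7561 ± 127 normalized counts (SD, n = 3), and STEAP1 and PAX7 also rose, PAX7 by 0.29 on the log2 scale with a limma adjusted p = 0.045 that ran from 0.000194 to 0.245 over all alternatives. PAX7 was not called in edgeR, in limma without the trend, with total-count scaling, or without any 1 library other than DMSO replicate 2. CD99, NR0B1 and CCK fell, and the levels, carried by CD99 and NR0B1, summed to 321908 to 339724 normalized counts in DMSO and 247790.0 to 252583 in BEZ235 libraries. The files hold RNA of whole cultures, so fewer cells of a type and less RNA per cell cannot be told apart.

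The promoters of RFX1, RFX3, RFX7 and MYB are shown because these RFX genes were higher and MYB was lower with BEZ235, and because their windows differ in the sites they hold. RefSeq promoters (GRCh38.p14) were matched for 8 of the 10 members. Each sequence is the 250 bases before the annotated start, 5′ to 3′ on the strand of the gene: chr19:14006321-14006570, chr9:3526002-3526251 and chr15:56245083-56245332 on the minus strand and chr6:135181058-135181307 on the plus strand. Capitals mark matches, reverse complements included, to the X-box arm GTTGCC, the CCAAT box and the forkhead core TGTTTAC.
RFX1: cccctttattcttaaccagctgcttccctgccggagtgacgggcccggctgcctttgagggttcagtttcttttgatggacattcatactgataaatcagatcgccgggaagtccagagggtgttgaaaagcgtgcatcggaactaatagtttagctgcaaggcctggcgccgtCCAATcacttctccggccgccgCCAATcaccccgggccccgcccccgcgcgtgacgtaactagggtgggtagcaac
RFX3: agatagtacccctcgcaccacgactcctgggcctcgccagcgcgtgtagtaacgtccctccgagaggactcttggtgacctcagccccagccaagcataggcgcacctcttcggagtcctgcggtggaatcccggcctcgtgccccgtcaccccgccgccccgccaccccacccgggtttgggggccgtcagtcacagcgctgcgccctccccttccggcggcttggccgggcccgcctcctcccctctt
RFX7: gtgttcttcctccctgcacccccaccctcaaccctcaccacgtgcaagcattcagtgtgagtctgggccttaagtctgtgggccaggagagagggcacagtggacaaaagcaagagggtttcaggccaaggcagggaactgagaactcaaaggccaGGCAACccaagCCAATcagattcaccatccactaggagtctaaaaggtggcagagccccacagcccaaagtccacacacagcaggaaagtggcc
MYB: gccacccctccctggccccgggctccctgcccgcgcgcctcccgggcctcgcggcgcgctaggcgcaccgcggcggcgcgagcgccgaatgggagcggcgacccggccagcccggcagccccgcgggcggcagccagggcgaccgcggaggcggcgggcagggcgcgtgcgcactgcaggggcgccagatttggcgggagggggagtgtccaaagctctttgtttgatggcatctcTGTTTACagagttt
The RFX1 window held 2 CCAAT boxes, at 76 to 72 and 54 to 50 bases before the start. That of RFX7 held an X-box arm at 94 to 89 and a CCAAT box at 83 to 79 bases before the start, and that of MYB the forkhead core at 14 to 8 bases. The RFX3 window held no match. Among the 8 matched members, the X-box arm was found in 2 promoters (RFX7 and MCIDAS), CCAAT in 2 and the forkhead core in 1. Over all 27305 promoters of the table, the arm was found in 10.1%, CCAAT in 33.0% and the forkhead core in 2.98%. A whole X-box was searched at 1 spacing only, as GTNNCC followed after 3 bases by GNAAC with N for any base. This pattern can include the arm. It was found in 0 of the 8 windows and in 1.98% of all promoters, and other spacings were not searched. The RefSeq start of RFX7 lies at the end of the deposited row but 1816 bases from the GENCODE v29 start, and that of RFX1 lies 719 bases from it, so other starts of these genes were not searched.

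FOXJ1, the motile cilium regulator (FASTDB gene GSHG0019649, hg38 chromosome 17, 76136333 to 76141290), was low in all 6 libraries. It lay at or below the detection limit of 3 reads in the DMSO libraries and in BEZ235 replicate 3. Its normalized counts were 1.08, 0 and 0.830 in DMSO libraries, from 1, 0 and 1 reads, and 13.9, 13.8 and 2.72 in BEZ235 libraries, from 12, 14 and 3 reads. All BEZ235 values were above all DMSO values, but BEZ235 replicate 3 stood at the limit of 3 reads. Over the groups, 29 reads stood against 2, a BEZ235 to DMSO ratio of 15 after scaling (95% counting interval 3.81 to 130.1, which covers counting error only). FOXJ1 did not reach 10 normalized counts in 3 libraries and was not tested; without this filter its log2 fold change was 2.58 with a limma adjusted p = 0.0179, and with a pseudocount of 10 in place of 1 the log2 fold change was 0.86.

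Markers of multiciliated cells were read beside FOXJ1. Of 10 listed, 7 were tested, of which CCDC78, PIFO and RSPH1 rose, CAPS fell and 3 did not pass the threshold. The shares, 42.9% higher and 14.3% lower, stood beside 33.1% and 33.2% of all tested genes. RSPH1, a radial spoke head protein of motile cilia, rose from 10.9 ± 8.71 to 149 ± 14 normalized counts (SD, n = 3), and PIFO from 19.4 ± 9.49 to 161 ± 74.2. The log2 fold change of RSPH1 was 4.16, and 3.15 without DMSO replicate 1. RSPH1 and PIFO passed the filter only through their BEZ235 libraries, where they were high, so their values are a description. Both are counted in the share that rose. CAPS, a calcium-binding protein, made up most of the summed level in DMSO libraries and fell from 2392 ± 152 to 1196 ± 47.8; the sum was 2826 to 3239 in DMSO and 2981 to 3113 in BEZ235 libraries. C20orf85 was at 0 in all libraries. The rows of RSPH1, CAPS and CCDC78 overlap those of SLC37A1, RANBP3 and ANTKMT, in that order, each of which held more reads. The part of such cells in the FOXJ1 reads was not tested.

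**Figure D1:**
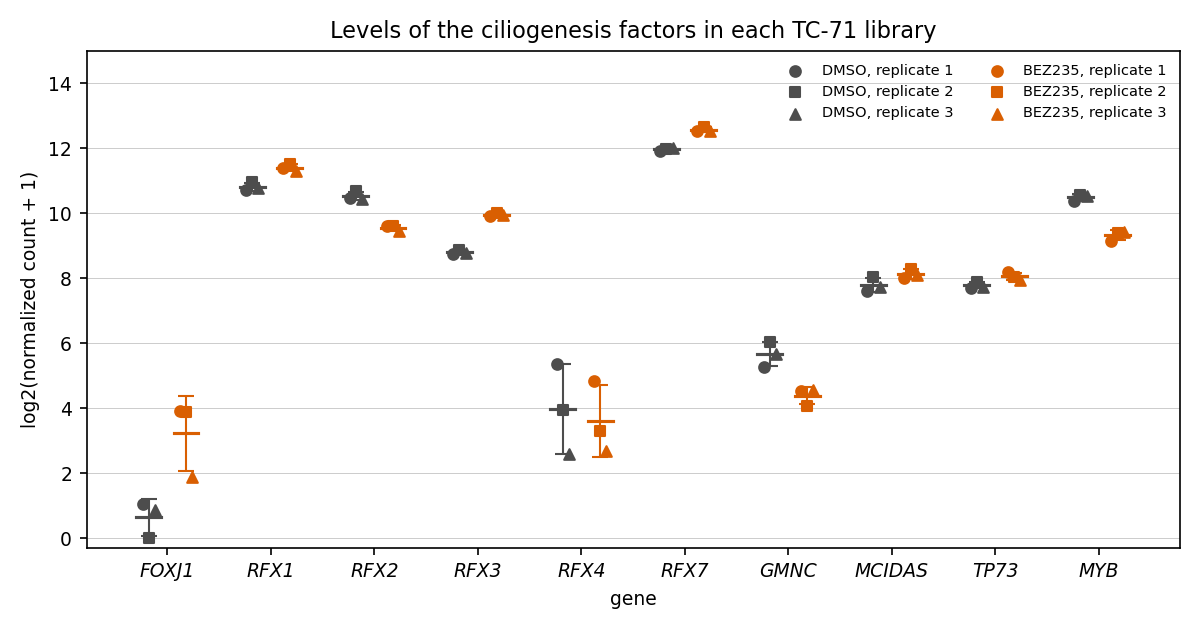
Log2(normalized count + 1) of the 10 ciliogenesis factors in each of the 3 DMSO (grey) and 3 BEZ235 (orange) libraries; the marker shape gives the replicate, and bars show the mean and SD. RFX1, RFX3 and RFX7 lie higher and RFX2, GMNC and MYB lower in all BEZ235 libraries, FOXJ1 lies near 0 in DMSO, and the values of RFX4 overlap.

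Among the 9 members that passed the filter, 6 differed between the groups, RFX1, RFX3 and RFX7 higher and RFX2, GMNC and MYB lower with BEZ235. This share, 66.7%, was near the 66.3% of all 23923 tested genes, of which 33.1% were higher and 33.2% lower. The count tests edgeR and DESeq2 on recovered reads also called 6 members, beside 65.8% and 65.7% of all genes. A change of at least 2-fold was fitted for 1 rise (RFX3, beside 12.7% of all genes) and 2 falls (GMNC and MYB, beside 13.6%), or 26.3% of all genes in either direction. DMSO and BEZ235 values were fully separated for 7 of the 9, beside 70.9% of all tested genes. The median log2 fold change of the tested members was 0.27, and for all tested genes it was -0.00085.

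RFX3, which drives ciliary genes in embryonic node, brain and pancreatic islet cells, had the largest rise among the tested members. Its normalized counts were 429.9, 469 and 436 in DMSO libraries and 964, 1024 and 989 in BEZ235 libraries. The groups lay far apart relative to their spread: 445 ± 20.9 against 992 ± 30.2 (SD, n = 3), with a log2 fold change of 1.16 (SE 0.0907; adjusted p = 7.94e-07 in limma). The gene spans 3218297 to 3526001 on chromosome 9. An unnamed row inside it held 54.1 ± 16.5 in DMSO and 9.73 ± 5.72 in BEZ235 libraries.

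RFX1, a widely expressed family member on chromosome 19 (13961530 to 14006322), had 1678, 1971 and 1743 normalized counts in DMSO and 2665, 2928 and 2531 in BEZ235 libraries. Every BEZ235 value exceeded every DMSO value. It rose by 0.59 on the log2 scale (SE 0.0822; adjusted p = 7.27e-05 in limma).

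RFX7, a large family member also known for activating growth-restraining genes, lies on chromosome 15 (56087280 to 56245082). It had 3887, 3998 and 4147 normalized counts in DMSO libraries and 5854, 6431 and 5900.2 in BEZ235 libraries. These were the highest counts of any member in every library. It rose by 0.60 on the log2 scale (SE 0.059; adjusted p = 5.13e-06 in limma), and its 95% interval of 0.46 to 0.73 overlapped that of RFX1 (0.41 to 0.77). The first 1110 bases of the row are shared with TEX9, whose level was 574 ± 38.9 in DMSO and 1232 ± 28.2 in BEZ235 libraries; how reads of the shared stretch were assigned was not tested.

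RFX2, which supports motile cilia and sperm formation, moved against these family members. Its DMSO values of 1418, 1628 and 1387 normalized counts all lay above its BEZ235 values of 778, 770.0 and 704. RFX2 fell from 1478 ± 131 to 751 ± 40.7 (SD, n = 3), or by 0.97 on the log2 scale (SE 0.0901; adjusted p = 2.94e-06 in limma). Its row (chromosome 19, 5993164 to 6110564) overlaps that of RANBP3-DT, which held 111 ± 9.91 in DMSO and 49.4 ± 16.2 in BEZ235 libraries.

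RFX4, a factor of the developing brain and testis on chromosome 12 (106582907 to 106762804), was low and did not differ beyond its spread. Its normalized counts were 40.0, 14.5 and 5.01 in DMSO and 27.8, 8.88 and 5.44 in BEZ235 libraries. The groups overlapped. The log2 fold change was -0.35 with a 95% interval of -2.17 to 1.47 (limma adjusted p = 0.723), so changes of over 2-fold in either direction lie within the interval. Leaving out DMSO replicate 1 turned it to 0.34 and leaving out BEZ235 replicate 3 to 0.11 (limma adjusted p = 0.752 and 0.922; 0.283 to 0.922 over all alternatives). The whole RFX4 row lies inside that of LOC100287944, which had 113 ± 18.6 and 119 ± 10.9 normalized counts.

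**Figure D2:**
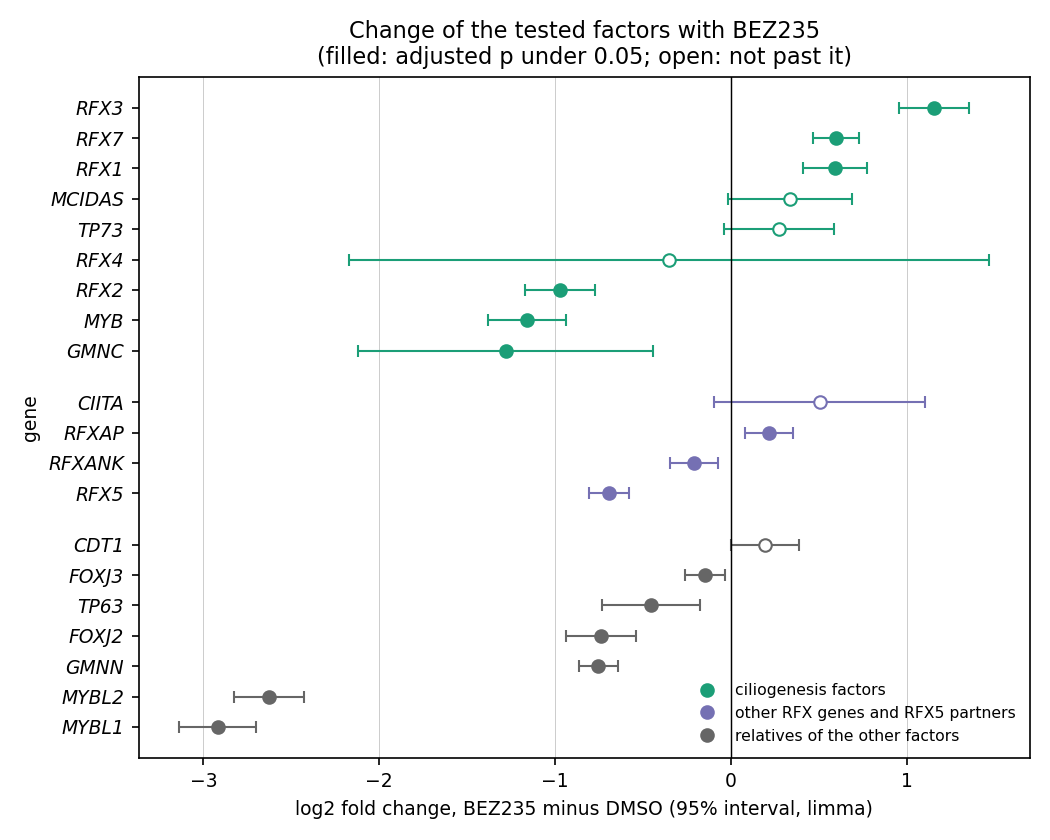
Log2 fold change (BEZ235 minus DMSO) with its 95% limma interval for the 9 tested ciliogenesis factors, 4 other RFX family genes or RFX5 partners and 7 relatives of the other factors. Filled points passed an adjusted p of 0.05; RFX3, RFX7 and RFX1 lie to the right of 0, RFX2, MYB and GMNC to the left, and MYBL1 and MYBL2 at -2.92 and -2.63.

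The geminin-like members did not give the same call. GMNC, the upstream regulator of multiciliation on chromosome 3 (190852737 to 190862694), had 37.8, 65.1 and 50.1 normalized counts in DMSO and 22, 15.8 and 22.6 in BEZ235 libraries, from 158 and 60 reads in all. It was low in both groups, and they did not overlap. GMNC fell by 1.28 on the log2 scale (SE 0.38; adjusted p = 0.0117 in limma). Without DMSO replicate 2 the log2 fold change was -1.09 and the limma adjusted p = 0.053 (0.00648 to 0.053 over all alternatives).

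MCIDAS, which acts with E2F factors to start centriole amplification, is on chromosome 5 (55219564 to 55227315). Its normalized counts were 192, 259 and 213 in DMSO and 254, 310.0 and 273 in BEZ235 libraries. The highest DMSO value lay above the lowest BEZ235 value. The log2 fold change of 0.34 (95% interval -0.02 to 0.69, limma adjusted p = 0.084) did not pass the threshold; without DMSO replicate 2 it was 0.46 with a limma adjusted p = 0.026 (0.026 to 0.252 over all alternatives).

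CCNO and CDC20B, which lie 3836 and 46386 bases from MCIDAS and take part in the same programme, were chosen for their position after their values were seen. CCNO, an atypical cyclin of centriole amplification, fell from 3763 ± 100.3 to 1487 ± 155 normalized counts, or by 1.34 on the log2 scale (SE 0.0802; adjusted p = 9.71e-08 in limma). CDC20B stood at 14.3 ± 8.72 and 5.49 ± 7.86 with overlapping groups, and the row of GPX8, which held far more reads, overlaps it. Its log2 fold change of -1.89 (limma adjusted p = 0.151) was -2.94 and passed the threshold without BEZ235 replicate 3, and was -0.97 without BEZ235 replicate 1 (limma adjusted p from 0.0363 to 0.402 over all alternatives). Geminin itself (GMNN), which restrains DNA replication licensing, fell from 13413 ± 474 to 7953 ± 121. Its licensing partner CDT1 had a log2 fold change of 0.20 (limma adjusted p = 0.069), which passed the threshold without DMSO replicate 1, without DMSO replicate 3 and with quantile normalization (0.0321 to 0.284 over all alternatives).

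TP73, a transcription factor needed for multiciliated cells, lies on chromosome 1 (3652516 to 3736201). It had 208, 237 and 213 normalized counts in DMSO libraries and 289.5, 261 and 246 in BEZ235 libraries. The groups did not overlap, yet the log2 fold change of 0.27 (95% interval -0.04 to 0.59, limma adjusted p = 0.113) did not pass the threshold. It passed in limma without the trend (adjusted p = 0.0457; 0.0457 to 0.312 over all alternatives). The row counts all TP73 transcripts, so long and amino-terminally shortened forms were not told apart. Its ends share 246 and 218 bases with the rows of WRAP73 and TP73-AS1, which held far more reads at 3679.8 ± 61 and 5697 ± 549 normalized counts in DMSO libraries. TP63, its relative in epithelial cells, fell from 812 ± 142 to 588 ± 39.8.

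MYB, best known as a factor of blood progenitors and also active early in multiciliation, lies on chromosome 6 (135181308 to 135219172). It had 1314, 1512 and 1479 normalized counts in DMSO and 569, 672 and 689 in BEZ235 libraries. All DMSO values lay far above all BEZ235 values. MYB fell by 1.16 on the log2 scale (SE 0.10; adjusted p = 1.71e-06 in limma). Of 9 blood cell markers, 8 matched a row, CD3E was at 0, and the levels summed to 112 to 130.2 normalized counts in DMSO and 99.7 to 136 in BEZ235 libraries.

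The other family members, MYBL1 of germ cells and MYBL2 of the cell cycle, fell as well. MYBL1 fell from 1684 ± 116 to 222 ± 12.2 and MYBL2 from 23521 ± 3559.9 to 3775 ± 60.5 normalized counts, by 2.92 and 2.63 on the log2 scale. Their 95% intervals, -3.14 to -2.70 and -2.83 to -2.43, did not overlap that of MYB (-1.38 to -0.94). Of the 5 subunits of the MuvB core, the complex that carries MYBL2 to cell cycle promoters, 4 fell, beside 33.2% of all tested genes, and RBBP4, a histone chaperone shared with other complexes, rose by 0.46 on the log2 scale. LIN54, the DNA-binding subunit, had a log2 fold change of -1.72 and LIN52 of -1.35, while LIN37 and LIN9 stood at -0.32 and -0.22. LIN9 did not pass the threshold without BEZ235 replicate 2 (limma adjusted p from 0.00503 to 0.0537 over all alternatives).

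Levels of different members were compared as normalized counts per kilobase (kb) of exon, with exon lengths from GENCODE v29 that may differ from the authors' gene models. The GENCODE v29 start of GMNC lies 29735 bases from its RefSeq start, so its length is uncertain. In DMSO libraries RFX1 stood highest at 415 ± 35.6 per kb, followed by RFX7 at 385 ± 12.5 and RFX2 at 361 ± 32. The libraries of neighbours in this order overlapped, so these 3 genes were not separated by their spread. MYB came next at 309 ± 22.9 per kb and MCIDAS at 128 ± 19.8. RFX3 at 41.3 ± 1.94 and TP73 at 39.5 ± 2.72 overlapped. GMNC at 14.9 ± 3.99, RFX4 at 4.52 ± 4.13 and FOXJ1 at 0.241 ± 0.214 per kb stood last, without overlap between neighbours.

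With BEZ235 the mean of MCIDAS stood above that of MYB, and the mean of FOXJ1 above that of RFX4. The libraries of each pair overlapped, so these changes of order were not separated by their spread. RFX1 (625 ± 46.7 per kb) and RFX7 (581 ± 30.7) were highest and overlapped. RFX2 (184 ± 9.95), MCIDAS (161 ± 16.5) and MYB (138 ± 14) followed, each overlapping the next. RFX3 stood at 92 ± 2.80 per kb and did not overlap TP73 at 47.7 ± 4.02. GMNC, FOXJ1 and RFX4 stood at 5.89 ± 1.10, 3.84 ± 2.44 and 3.21 ± 2.75 per kb, each overlapping the next.

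Within the RFX family, RFX5 took the largest share of the summed level per kb in both groups. RFX5, not known as a ciliary factor, is the DNA-binding subunit of the complex that activates MHC class II genes. It took 62.4% ± 0.682 in DMSO libraries and 45.4% ± 1.51 in BEZ235 libraries (SD, n = 3). RFX1 took 12.9% ± 0.614 and 23% ± 1.05, and RFX7 12% ± 0.564 and 21.4% ± 0.631. RFX2 took 11.3% ± 0.595 and 6.75% ± 0.266, and RFX3 1.29% ± 0.0119 and 3.38% ± 0.0819. For these 5 genes the shares did not overlap between the groups. Among all tested genes, the levels of 70.9% did not overlap. The shares are parts of 1 total, so the fall of RFX5 alone raises those of the others. They were not tested. The family total was 3206 ± 100.4 per kb in DMSO and 2720.0 ± 65.2 in BEZ235 libraries.

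RFX5 itself fell from 7361 ± 195 to 4546 ± 35.9 normalized counts, or by 0.69 on the log2 scale (SE 0.0508; adjusted p = 4.51e-07 in limma). RFX6 and RFX8 had 0 reads in every library. Of the RFX5 partners, RFXANK had a log2 fold change of -0.21 and RFXAP of 0.22 (limma adjusted p = 0.0103 and 0.0092). The RFXANK row shares 458 bases with that of NR2C2AP, which fell from 9380 ± 389 to 6393 ± 468 normalized counts. It also shares 317 bases with the row of BORCS8. How reads of the shared stretches were assigned was not tested. RFXANK did not pass the threshold in limma without the trend (0.003 to 0.0536 over all alternatives). RFXAP did not pass it without BEZ235 replicate 1, without DMSO replicate 3 and with total-count scaling (0.00254 to 0.121 over all alternatives).

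**Figure D3:**
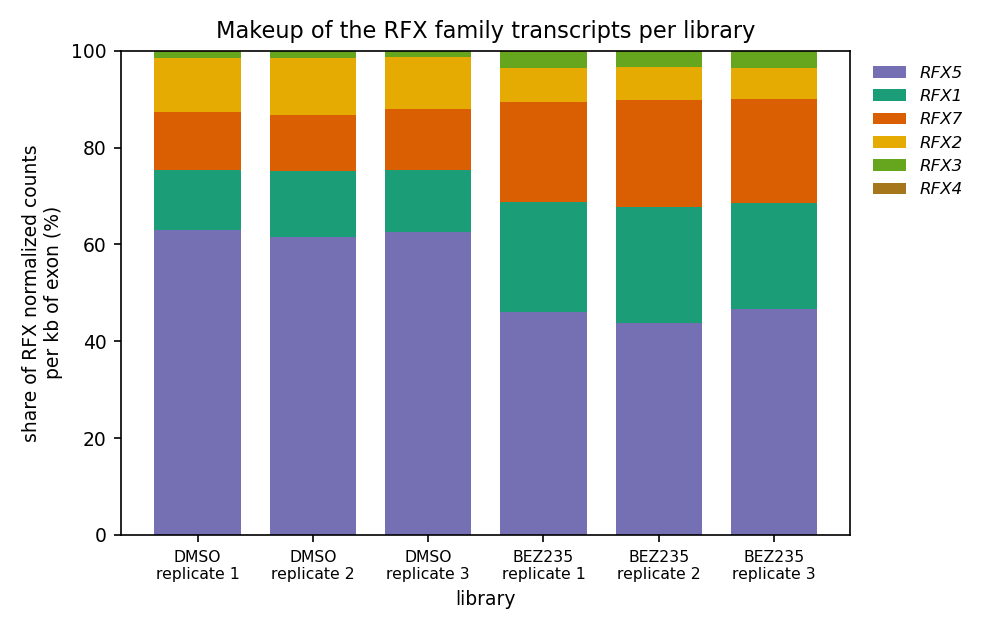
Stacked bars give, for each library, the share (%) of each gene in the summed normalized counts per kb of exon of the RFX family; RFX6 and RFX8 had 0 reads and RFX4 is too small to see. RFX5 takes 62.4% on average in DMSO and 45.4% in BEZ235 libraries, and RFX1, RFX7 and RFX3 take larger shares in BEZ235 libraries.

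Genes connected with these factors were counted in lists taken from general knowledge of the field, not from binding data in these cells. The lists were chosen with earlier results of these data known, so their shares are a description. Of 34 genes of ciliary transport and the transition zone commonly listed as RFX targets, all tested, 25 rose, 5 fell and 4 did not pass the threshold, with a median log2 fold change of 0.64. The share that rose was 73.5%, beside 33.1% of all tested genes. CC2D2A, a transition zone protein, rose from 2089.9 ± 89.3 to 8383 ± 494 normalized counts. DYNC2H1, the motor of retrograde ciliary transport, rose from 2515 ± 78.3 to 7817 ± 597, and TCTN2, also of the transition zone, from 501 ± 16.1 to 1767 ± 103. ARL3, a small GTPase that releases lipidated cargo in cilia, and TMEM107, a transition zone protein, fell by 0.90 and 0.97 on the log2 scale.

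Of 38 motile cilium genes commonly listed as FOXJ1 targets, 35 were tested, of which 19 rose, 3 fell and 13 did not pass the threshold. The median log2 fold change was 0.51. Of those tested 54.3% rose and 8.57% fell, beside 33.1% and 33.2% of all tested genes. The genes that rose include RSPH1, RSPH4A and CFAP52, which passed the filter only through their BEZ235 libraries, where they were high. DRC1, among those that fell, passed it only through its DMSO libraries. STK36, a kinase of the central pair of motile cilia, rose from 1393 ± 37.4 to 5379.9 ± 234 normalized counts. The kinesin KIF9 rose by 1.87 on the log2 scale, and its row overlaps KIF9-AS1. RSPH4A, another radial spoke head gene, chosen after its values were seen for the largest fold change of the list, had 0, 15 and 2 reads in DMSO and 116, 94 and 186 in BEZ235 libraries (log2 fold change 5.19, limma adjusted p = 0.00027). RSPH4A passed the filter only through its BEZ235 libraries, where it was high, so these values are a description. Without DMSO replicate 1 the log2 fold change was 4.28 and without DMSO replicate 2 it was 6.30, while edgeR gave 4.54. DRC1, a dynein regulatory subunit, fell from 76 ± 7.93 to 14.5 ± 10.8, and ODAD2, a dynein docking factor, from 557 ± 23.5 to 354 ± 29.

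Of 15 regulators and centriole assembly genes of multiciliated cells, 14 were tested: 10 fell, 1 rose and 3 did not pass the threshold, with a median log2 fold change of -0.57. The shares, 71.4% lower and 7.14% higher, stood beside 33.2% and 33.1% of all tested genes. Many of them also serve centriole duplication in dividing cells. STIL, which builds the cartwheel of new centrioles, fell from 6321 ± 181 to 925 ± 58.6 normalized counts. PLK4, the kinase that starts centriole duplication, fell from 3333 ± 113 to 871 ± 63.2, and its anchor CEP152 from 3926 ± 361 to 1285 ± 57.8. TFDP1, the partner of E2F factors, rose by 0.27 on the log2 scale, but did not pass the threshold with total-count scaling (limma adjusted p from 0.000567 to 0.125 over all alternatives). DEUP1, the scaffold of the deuterosome of multiciliated cells, had 0 reads in every library.

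Of 11 genes reported to be activated by RFX7, 10 fell (90.9%, beside 33.2% of all tested genes) and 1 rose. Their median log2 fold change was -0.61. PIK3IP1, an inhibitor of PI3K, fell from 470.2 ± 88.2 to 124 ± 17.2 normalized counts, and TSPYL2, a nucleosome assembly factor, from 7163 ± 1049 to 1482 ± 68.3. PDCD4, an inhibitor of translation, fell by 0.49 on the log2 scale, and its row overlaps BBIP1. MXD4, a MYC antagonist, rose from 5406 ± 797 to 11086 ± 185. SLC43A2, at -0.47, did not pass the threshold without BEZ235 replicate 3 and without DMSO replicate 3 (limma adjusted p from 0.00196 to 0.0602 over all alternatives). Several genes of the list answer to other regulators too, and RFX5 is one of them.

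**Figure D4:**
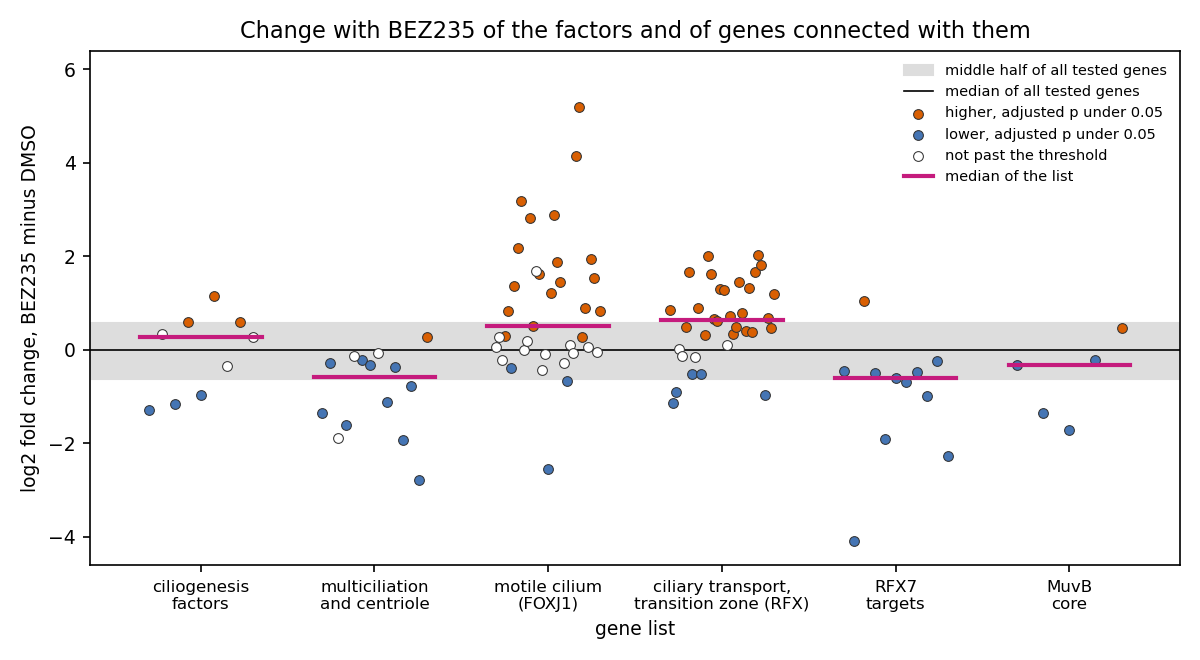
Log2 fold change of every tested gene in 6 lists (points, in alphabetical order within a list), coloured by the limma call; the pink line is the list's median and the grey band holds the middle 50% of all tested genes. The RFX and FOXJ1 ciliary lists have medians of 0.64 and 0.51, the multiciliation and RFX7 lists of -0.57 and -0.61, and the ciliogenesis factors of 0.27.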

How the data were processed

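RNA from 6 TC-71 cultures was sequenced, and the authors deposited normalized counts per gene, 1 column a library; the values are a signal of at least 0 on hg38 rows of the FASTDB annotation, per the file headers. The submitters' processing notes list FastQC, Picard, SAMtools, STAR 2.4.0 and DESeq without their roles. No source used here names the counting rule or strand, so overlapping and antisense rows may share reads. Columns called controls were matched by number to the DMSO samples, the only control group. Dividing each column by the worth of 1 read (0.835 to 1.16) gave whole reads for 100.0% of values within 0.01 normalized counts.

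Rows reaching 10 normalized counts in 3 or more libraries, 23923 in all, entered limma 3.58.1 (R 4.3.3, mean-variance trend, two-sided) on log2(normalized count + 1), with p-values adjusted by Benjamini-Hochberg over all of them and a threshold of 0.05. A gene low in 1 group could pass this filter through the other group alone. Among the named genes, RSPH4A, RSPH1, CFAP52, PIFO and HLA-DOA did so through BEZ235 libraries, and DRC1 and CD74 through DMSO libraries. Such genes stay in the counts of their lists. The added 1 draws in differences between low values. Where a library is near 0, the limma size can still be the larger: RSPH4A was 5.19 here and 4.54 in edgeR. In recovered reads edgeR 4.0.16 found 15744 genes and DESeq2 1.42.0 found 15706, against 15863. With 3 against 3, an exact permutation test of a gene cannot reach below 0.1 and was not used. Libraries within a group differed by more than sampling noise. Counting intervals are exact binomial at 95%.

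The members and lists were chosen with earlier results of these data known. All members were named, and any gene of the RFX5 group, relatives, MuvB and RFX7 lists could be; for each further list, up to 3 called genes of lowest p in its prevailing direction and up to 2 in the opposite one. A few named genes are not reported here. Cell type markers were named beside the member they bear on. RefSeq (GRCh38.p14) gave promoters and GENCODE v29 gave exon lengths. Scripts were tested on simulated data. Alternatives were TMM, total-count and quantile scaling; pseudocounts of 0.5 and 10; filtering at 50 or not at all; no trend; a replicate block; each library left out; and both count tests.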

Additional observations from a re-analysis of the deposited data

How the results depend on the processing

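RFX1, RFX2, RFX3, RFX7 and MYB kept their direction and passed the threshold in all 17 alternatives. The alternatives called 5 to 7 members and 14483 to 16102 genes. TP73 passed in limma without the trend (log2 fold change 0.27). With the filter at 50, GMNC and RFX4 were not tested. With 1 library left out, the log2 fold change of GMNC ran from -1.47 to -1.09, that of MCIDAS from 0.24 to 0.46, that of RFX4 from -1.04 to 0.34, with 0.11 without BEZ235 replicate 3, and that of FOXJ1 from 2.25 to 3.25, the last without BEZ235 replicate 3; FOXJ1 was at 0.86 with a pseudocount of 10. The cause of these changes was not tested. Same-numbered libraries of the groups deviated with Pearson's r of -0.04, 0.02 and 0.04 across genes, and those of unlike number with -0.10 to 0.07. These values cannot show whether cultures of the same number were set up together. With the number as a block 15917 genes and 6 members were called, and no member's call changed.

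Of the motile cilium list, 16 to 20 genes were higher and 2 to 4 lower with a library left out, beside 19 and 3. For the RFX5 group, 4 genes were tested, 1 higher and 2 lower (25% and 50%, beside 33.1% and 33.2% of all tested genes). In this group limma without the trend gave 2 higher and 1 lower, total-count scaling 0 higher, and leaving out a library 0 to 1 higher. Of the 8 relatives tested, 0 were higher and 6 lower (75%, beside 33.2% of all tested genes). For their count of higher genes, quantile normalization gave 1 and leaving out a library 0 to 1. For the multiciliation list, total-count scaling gave 0 higher in place of 1. For MHC class II genes (2 higher, 1 lower), DESeq2, the filter at 50, no filter, the replicate block, total-count scaling and each omitted library gave 1 higher; the filter at 50 gave 0 lower, total-count scaling 2 and an omitted library 1 to 2.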

Other observations

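MHC class II genes have promoters bound by RFX5 with RFXANK and RFXAP. Of 10 listed genes 7 were tested, of which 2 rose (28.6%, beside 33.1% of all tested genes), 1 fell (14.3%, beside 33.2%) and 4 did not pass the threshold. The peptide-loading genes HLA-DMA and HLA-DMB stood at 584 ± 72.8 and 161 ± 29.8 normalized counts in DMSO and 689.5 ± 55.1 and 116 ± 26.9 in BEZ235 libraries; neither passed the threshold. HLA-DMA passed with quantile normalization, and HLA-DMB with total-count scaling, without BEZ235 replicate 1 and without DMSO replicate 2 (limma adjusted p from 0.0377 to 0.265 and 0.034 to 0.249 over all alternatives). HLA-DOA, an inhibitor of peptide loading, rose from 15.4 ± 13.8 to 62.3 ± 22.9 normalized counts (log2 fold change 2.19, limma adjusted p = 0.00656); without DMSO replicate 1 the log2 fold change was 2.83, within 1.80 to 2.83 over the libraries left out. CD74, the invariant chain, fell from 54 ± 21.8 to 9.21 ± 6.22 (log2 fold change -2.59, limma adjusted p = 0.00265). HLA-DOA passed the filter only through its BEZ235 libraries and CD74 only through its DMSO libraries, so their values are a description. HLA-DPA1 had 61.9 ± 3.69 and 95.4 ± 1.77 normalized counts, and its call (limma adjusted p = 0.0304) was lost whichever library was left out (0.000781 to 0.0745 over all alternatives). CIITA, the coactivator of these genes, stood at 47.9 ± 7.41 and 68.1 ± 5.29 (log2 fold change 0.51, limma adjusted p = 0.123), and passed in limma without the trend (0.0215 to 0.268 over all alternatives).

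FOXJ2 and FOXJ3, forkhead factors named with FOXJ1, were measured well above the limit of detection. FOXJ2 fell from 2536 ± 321 to 1513 ± 65.9 normalized counts. FOXJ3 had 6403 ± 126 and 5778 ± 160.3, a log2 fold change of -0.15 (limma adjusted p = 0.0253), and did not pass the threshold without DMSO replicate 3, without BEZ235 replicate 1 or 3, with quantile normalization and in limma without the trend (0.00674 to 0.0946 over all alternatives). Of 8 male germ cell markers 5 were at 0 in all libraries, and the levels summed to 882 to 966 normalized counts in DMSO and 729.5 to 818 in BEZ235 libraries. SYCP3 made up most of these sums, at 803 ± 23.5 in DMSO and 684 ± 64.8 in BEZ235 libraries. Its row overlaps that of CHPT1, which held more reads. Of 8 epithelial markers KRT5 was at 0 and 7 were tested, of which 2 rose, 2 fell and 3 did not pass the threshold. The shares, 28.6% each way, stood beside 33.1% higher and 33.2% lower among all tested genes. MUC1 rose from 482 ± 72.4 to 1442 ± 83.6 and EPCAM from 55.3 ± 13.9 to 115 ± 23 normalized counts. The MUC1 row lies inside that of SLC50A1, which held more reads. KRT8 and TP63 fell, KRT8 from 1263 ± 46.8 to 638 ± 37.7. The levels summed to 3187 to 3455 and 3385 to 3519.7.

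The genes whose log2 levels followed RFX7 most closely over the 6 libraries were CD276, LYPLA2 and IDH3G, with Pearson's r of 0.9995, 0.9994 and 0.9994. The libraries fall into the 2 treatment groups, and 498 of 15120 genes compared had an r of at least 0.99, so this is a description only.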
